A study of Mus musculus with 9 samples.

Results

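The endothelial receptor and junction genes described here were 10 genes, Kdr, Flt1, Flt4, Tek, Tie1, Pecam1, Cdh5, Emcn, Eng and Cd34. They were chosen by gene symbol, as the probe sets that the annotation of the Affymetrix mouse array paired with one of these symbols alone. All 10 genes were found, on 16 of the 45037 probe sets other than controls and among 18193 genes with a probe set of their own. RNA came from E14 cells, a mouse embryonic stem cell line, either as undifferentiated embryonic stem cells (ESCs; 4 arrays, labelled 2, 6, 8 and 10) or as embryoid bodies (EBs; 5 arrays, labelled 1, 3, 5, 7 and 9). Embryoid bodies are aggregates in which ESCs differentiate into cells of many lineages. Both groups were labelled as untreated and grown by one culture protocol, and the days of EB differentiation are not given in the sources used here. The paper's methods call the 4 ESC samples biological replicates and do not describe the EBs, so p-values measure only the spread between these samples, which may in part be technical. Each value is the log2 of a GCRMA intensity, an expression estimate per probe set after background correction and normalization.

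Endothelial cells line blood and lymphatic vessels and arise in the embryo from Kdr-positive mesoderm. Kdr, Flt1 and Flt4 encode the receptor tyrosine kinases for vascular endothelial growth factors (VEGFs), and Tek and Tie1 encode the kinases of the angiopoietin system, which steadies maturing vessels. Cdh5 (VE-cadherin) and Pecam1 hold neighbouring endothelial cells together at their junctions. Endomucin (Emcn) and Cd34 are sialomucins of the endothelial surface, and endoglin (Eng) is a coreceptor for ligands of the TGF-beta family.

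Of the 10 genes, 6 were higher in EBs than in ESCs, namely Kdr, Cdh5, Cd34, Emcn, Flt1 and Tie1. The VEGF receptor Kdr had the largest difference, 4.02-fold. Emcn was 1.82-fold and Flt1 1.59-fold higher. Cdh5 was 2.54-fold, Cd34 2.11-fold and Tie1 1.54-fold higher, but the means of these 3 genes lay under log2 4 in both groups, low on the GCRMA scale. On the scale of log2(value + 16), which damps differences of low values, the differences were 0.56 for Flt1, 0.54 for Emcn, 0.51 for Cdh5, 0.36 for Cd34 (not called, adjusted p = 0.081) and 0.17 for Tie1, so the folds give no order among these 5 genes. Flt4, Tek, Pecam1 and Eng did not pass the test, and 0 of the 10 genes were called lower. A gene was represented by its probe set with the highest mean over the 9 arrays and called at an adjusted p under 0.05 in a limma fit over all probe sets. By the same rule 15.7% of all genes were called higher and 14.7% lower in EBs. In the 6 genes called higher, every EB array also lay above every ESC array, which held for 15.6% of all genes. The median difference of the 10 genes was 0.64 on the log2 scale, against -0.04 over all genes. In these bulk samples a larger number of endothelial cells, more RNA per cell and expression in other cells of the EBs cannot be told apart.

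**Figure D1:**
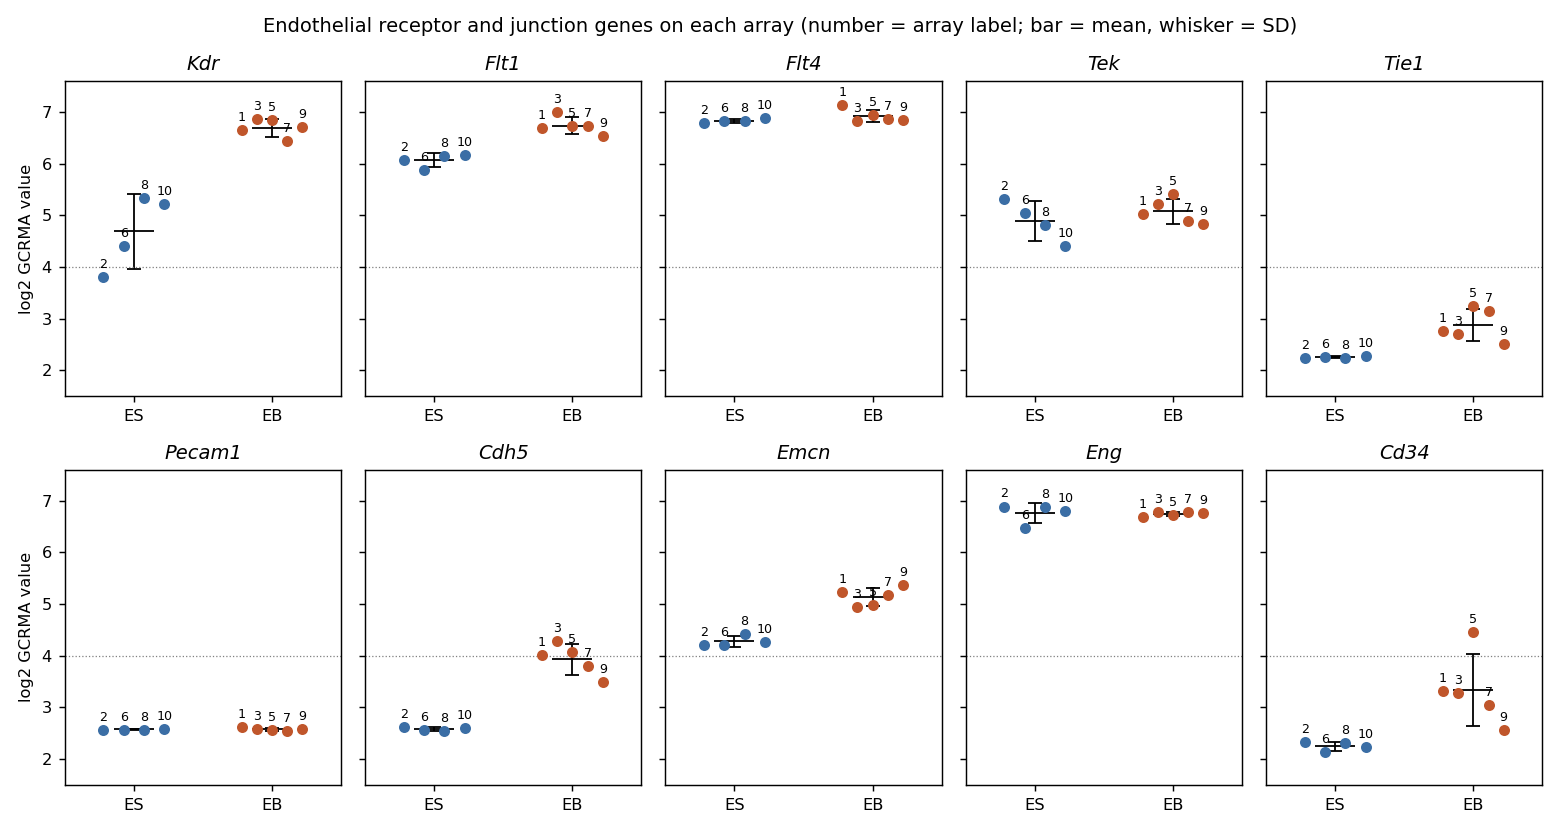
Log2 GCRMA value (vertical axis) of the representative probe set of each of the 10 genes on 4 ESC arrays (blue, ES) and 5 EB arrays (orange, EB), with array numbers beside the points, bars at the means, whiskers of 1 SD and a dotted line at log2 4. EB points lie wholly above ESC points for Kdr, Flt1, Tie1, Cdh5, Emcn and Cd34, and the groups overlap for Flt4, Tek, Pecam1 and Eng.

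Kdr (VEGF receptor 2), the main signalling receptor for Vegfa, was measured by probe set 1449379_at. On ESC arrays 2, 6, 8 and 10 its log2 values were 3.80, 4.41, 5.33 and 5.21. On EB arrays 1, 3, 5, 7 and 9 they were 6.65, 6.86, 6.85, 6.43 and 6.70. The EB arrays thus lay close together and above all ESC arrays, while the ESC arrays split into a lower pair (2 and 6) and a higher pair (8 and 10). The means were 4.69 ± 0.72 (SD, n = 4) in ESCs and 6.70 ± 0.17 (SD, n = 5) in EBs. The difference was 2.01 ± 0.29 (SE; 95% interval 1.35 to 2.67; limma adjusted p = 0.00083). It was 2.68 among arrays numbered 1 to 6 and 1.30 among arrays numbered 7 to 10, and each passed the test on its own (adjusted p = 0.00090 and 0.0050).

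Flt1 (VEGF receptor 1), which binds Vegfa, Vegfb and Pgf and in soluble form withholds Vegfa from Kdr, had 4 probe sets. The representative one, 1451756_at, read 6.08, 5.87, 6.15 and 6.17 on ESC arrays 2, 6, 8 and 10. It read 6.69, 6.99, 6.73, 6.73 and 6.54 on EB arrays 1, 3, 5, 7 and 9. The groups did not overlap, with the highest ESC array (10) a little below the lowest EB array (9). The rise from 6.07 ± 0.14 (SD, n = 4) to 6.73 ± 0.16 (SD, n = 5) was 0.66 ± 0.10 (SE, adjusted p = 0.00088). It was 0.83 among arrays 1 to 6 and 0.47 among arrays 7 to 10 (adjusted p = 0.010 and 0.047). The other 3 probe sets lay under log2 4 in both groups and were not called, with differences of 0.32 for 1419300_at, 0.24 for 1440926_at and 0.11 for 1454037_a_at (adjusted p = 0.11, 0.093 and 0.29). On 1440926_at every EB array lay above every ESC array.

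Flt4 (VEGF receptor 3), the receptor for Vegfc and Vegfd in lymphatic and sprouting endothelium, did not pass the test on either of its probe sets. Probe set 1444052_at ranged from 6.79 to 6.88 in ESCs and from 6.83 to 7.13 in EBs, a difference of 0.10 (95% interval -0.06 to 0.25; adjusted p = 0.26). Probe set 1421442_at went the other way, at 5.14 ± 0.16 (SD, n = 4) in ESCs and 4.98 ± 0.06 (SD, n = 5) in EBs, with a difference of -0.16 (95% interval -0.32 to 0.00; adjusted p = 0.10). The groups overlapped on both.

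The promoters of the 5 genes that were called higher and had a RefSeq entry are printed here because ETS factors, among them Fli1 and Etv2, are known to act at promoters of endothelial genes through the core GGAA. Sequences are from RefSeq, build GRCm38.p6, and each is the 250 bases before the transcript start, 5′ to 3′ on the gene's strand. Capitals mark GGAA or its reverse complement TTCC, counted on both strands, with overlapping matches counted separately. Of the 10 genes, 8 had an entry, and Cdh5 and Pecam1 had none. Kdr lies on the minus strand at chr5:75978456-75978705, Flt1 on the minus strand at chr5:147726012-147726261 and Tie1 on the minus strand at chr4:118489850-118490099. Emcn lies on the plus strand at chr3:137340828-137341077 and Cd34 on the plus strand at chr1:194938571-194938820.
Kdr: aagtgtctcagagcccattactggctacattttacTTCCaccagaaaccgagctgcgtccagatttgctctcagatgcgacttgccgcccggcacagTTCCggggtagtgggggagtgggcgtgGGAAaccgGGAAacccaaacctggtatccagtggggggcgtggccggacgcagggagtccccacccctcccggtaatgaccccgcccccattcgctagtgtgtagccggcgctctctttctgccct
Flt1: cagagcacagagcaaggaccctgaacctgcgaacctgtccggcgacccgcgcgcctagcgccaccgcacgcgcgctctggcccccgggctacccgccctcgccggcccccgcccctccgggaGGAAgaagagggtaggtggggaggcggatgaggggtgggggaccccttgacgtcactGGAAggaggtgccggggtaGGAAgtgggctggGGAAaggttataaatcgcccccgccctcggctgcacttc
Tie1: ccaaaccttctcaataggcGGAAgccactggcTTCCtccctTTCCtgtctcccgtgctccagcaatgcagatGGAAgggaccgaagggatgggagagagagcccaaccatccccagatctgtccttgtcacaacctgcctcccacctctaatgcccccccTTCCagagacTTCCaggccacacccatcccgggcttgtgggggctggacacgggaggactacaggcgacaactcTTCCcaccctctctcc
Emcn: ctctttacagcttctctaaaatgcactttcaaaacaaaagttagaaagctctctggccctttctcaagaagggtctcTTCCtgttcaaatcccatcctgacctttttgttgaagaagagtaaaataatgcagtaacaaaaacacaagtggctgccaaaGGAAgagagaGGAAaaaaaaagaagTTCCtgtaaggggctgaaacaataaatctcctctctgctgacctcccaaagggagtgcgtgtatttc
Cd34: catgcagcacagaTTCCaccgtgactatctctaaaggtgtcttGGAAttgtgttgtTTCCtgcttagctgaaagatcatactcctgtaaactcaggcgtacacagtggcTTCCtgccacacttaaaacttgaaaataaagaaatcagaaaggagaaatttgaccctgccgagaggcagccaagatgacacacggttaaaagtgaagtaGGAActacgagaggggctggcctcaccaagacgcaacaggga

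The core occurred 7 times before Tie1, 5 times before Cd34 and 4 times each before Kdr, Flt1 and Emcn. Before the 3 genes with an entry that were not called it occurred 3 times (Eng) and 2 times (Flt4 and Tek). Of all 32851 promoter windows of this length, 93.4% held at least 1 match, 76.8% at least 2 and 54.7% at least 3. At least 4 matches were held by 33.4%, at least 5 by 18.0% and at least 7 by 3.82%. The GATA core GATAA (reverse complement TTATC) occurred in 0 of the 8 windows and in 22.6% of all windows. A TATA box (TATAAA, or TTTATA) occurred before Flt1 and in none of the other 7, against 12.4% of all windows. Such matches are letters in a window and not measured binding sites, and a relation between their number and the calls was not tested.

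Tek (Tie2), the receptor for angiopoietins, overlapped between the groups. Its probe set 1418788_at read 5.31, 5.04, 4.80 and 4.41 on ESC arrays 2, 6, 8 and 10. On EB arrays 1, 3, 5, 7 and 9 it read 5.03, 5.23, 5.41, 4.89 and 4.83. The ESC arrays spread over nearly 1 log2 unit and enclosed 4 of the 5 EB arrays. The difference was 0.18 (95% interval -0.24 to 0.61; adjusted p = 0.42), which leaves room for a rise of up to 0.61.

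Tie1, the related receptor that binds no angiopoietin with high affinity and modulates Tek, lay under log2 4 on every array, in the lower part of the GCRMA scale. Between 49.1% and 49.9% of all probe sets on an array lay under this level. The 4 ESC arrays read 2.24, 2.25, 2.24 and 2.28, and EB arrays 1, 3, 5, 7 and 9 read 2.76, 2.70, 3.25, 3.15 and 2.52. ESC arrays were nearly equal, and EB arrays 5 and 7 were the highest. From 2.25 ± 0.02 (SD, n = 4) the mean rose to 2.87 ± 0.31 (SD, n = 5), a difference of 0.62 ± 0.14 (SE, adjusted p = 0.011). The call was lost with arrays 1 to 6 alone (0.65, adjusted p = 0.068) and with arrays 7 to 10 alone (0.58, adjusted p = 0.22). On the scale of log2(value + 16) it was 0.17 (adjusted p = 0.022).

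Cdh5, the adhesion protein of endothelial adherens junctions and a defining marker of endothelium, was higher in EBs on one of its 2 probe sets. Probe set 1433956_at read 2.63, 2.56, 2.55 and 2.61 on ESC arrays 2, 6, 8 and 10. On EB arrays 1, 3, 5, 7 and 9 it read 4.02, 4.28, 4.07, 3.80 and 3.49. All EB arrays stood above the tight ESC values, and arrays 7 and 9 stood lowest among them. The rise from 2.59 ± 0.04 (SD, n = 4) to 3.93 ± 0.30 (SD, n = 5) was 1.35 ± 0.14 (SE; 95% interval 1.04 to 1.66; adjusted p = 8.3e-05). It was 0.51 on the scale of log2(value + 16) (adjusted p = 0.00035). The other probe set, 1422047_at, stayed between 2.24 and 2.36 on all 9 arrays (difference -0.04, adjusted p = 0.11).

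Pecam1 (CD31), which is found on endothelium, platelets and leukocytes and is also known from the surface of mouse ESCs, gave no measurable difference. Its only probe set, 1421287_a_at, read from 2.57 to 2.59 in ESCs and from 2.54 to 2.62 in EBs. The difference was 0.00 (95% interval -0.04 to 0.04; adjusted p = 0.88). Like the second probe sets of Cdh5 and Eng, it varied by an SD under 0.05 in both groups, at a level under log2 4. Whether this probe set detects the transcript was not tested.

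Emcn, whose product endomucin coats venous and capillary endothelium, rose on its probe set 1425582_a_at. Its values were 4.21, 4.22, 4.43 and 4.26 on ESC arrays 2, 6, 8 and 10. On EB arrays 1, 3, 5, 7 and 9 they were 5.24, 4.94, 4.99, 5.17 and 5.37. The groups were well apart, and EB array 9, the lowest for Cdh5, was here the highest. The mean went from 4.28 ± 0.10 (SD, n = 4) to 5.14 ± 0.18 (SD, n = 5), a difference of 0.86 ± 0.09 (SE; 95% interval 0.65 to 1.07; adjusted p = 0.00013). It was 0.84 among arrays 1 to 6 and 0.93 among arrays 7 to 10 (adjusted p = 0.0046 and 0.0079).

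Cd34, a mucin of blood progenitors and of small-vessel endothelium, varied most between EB arrays. Its probe set 1416072_at read 2.32, 2.13, 2.31 and 2.23 on ESC arrays 2, 6, 8 and 10. On EB arrays 1, 3, 5, 7 and 9 it read 3.32, 3.27, 4.45, 3.04 and 2.56. EB array 5 alone passed log2 4, and EB array 9 was only slightly above the ESC arrays. The means were 2.25 ± 0.09 (SD, n = 4) and 3.33 ± 0.70 (SD, n = 5), with a difference of 1.08 ± 0.32 (SE; 95% interval 0.37 to 1.79; adjusted p = 0.039). Without EB array 5 the difference was 0.80 (adjusted p = 0.0076). The call was lost without any one of ESC arrays 2, 6, 8 and 10 or EB arrays 1, 3 and 7, where the difference was 1.04 to 1.15 and the adjusted p 0.054 to 0.089. It was also lost among arrays 1 to 6 (1.45, adjusted p = 0.070), among arrays 7 to 10 (0.53, adjusted p = 0.14) and on the scale of log2(value + 16) (0.36, adjusted p = 0.081).

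Eng did not pass the test. Probe set 1417271_a_at read 6.89, 6.47, 6.89 and 6.80 on ESC arrays 2, 6, 8 and 10 and 6.69, 6.78, 6.73, 6.78 and 6.76 on EB arrays 1, 3, 5, 7 and 9. The EB arrays all fell within the range of the ESC arrays. The difference was -0.02 (95% interval -0.21 to 0.18; adjusted p = 0.88), so a rise of the size seen for Emcn lies outside the interval. The second probe set, 1432176_a_at, had means of 3.06 and 3.03 (adjusted p = 0.27).

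**Figure D2:**
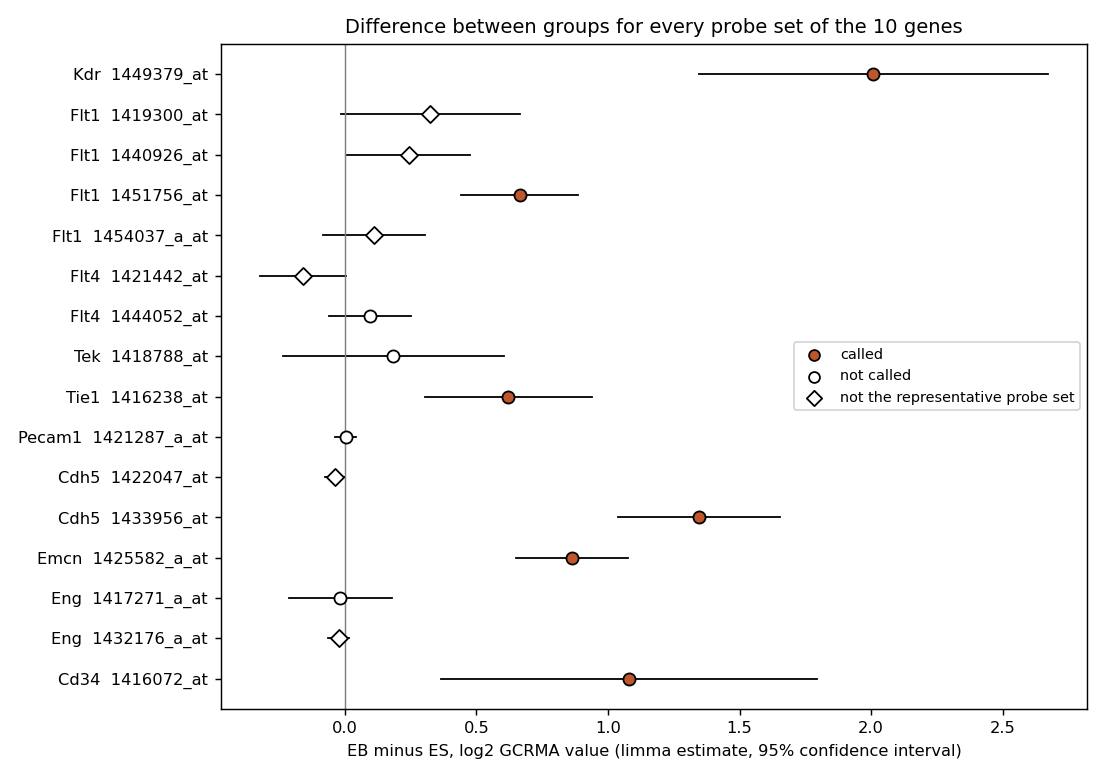
Difference between EBs and ESCs in log2 GCRMA value (horizontal axis, limma estimate with its 95% confidence interval) for each of the 16 probe sets of the 10 genes. Filled circles are called, open circles are representative probe sets that were not called, and diamonds are the other probe sets of a gene. Of the 16 probe sets 6 were called, all higher in EBs, and no second probe set of Flt1, Flt4, Cdh5 or Eng was called.

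The list of VEGF ligands, neuropilin coreceptors and the semaphorins and plexin that share the neuropilins held 10 genes. Of these, 7 were called higher and 1 lower, beside 15.7% and 14.7% of all genes, with a median difference of 1.44. Nrp1, the neuropilin that binds Vegfa beside Kdr, read 4.34, 4.87, 7.09 and 6.83 on ESC arrays 2, 6, 8 and 10 and 11.51 to 11.65 on the 5 EB arrays. Its difference was 5.82 ± 0.54 (SE, adjusted p = 4.8e-05), and its ESC arrays split into the same lower and higher pairs as those of Kdr. Nrp2, the coreceptor that partners Flt4, rose by 1.88 and Plxnd1, a semaphorin receptor of endothelium, by 2.96. Among ligands, Vegfa rose by 1.46 and Vegfc by 2.07 (adjusted p = 0.00089 and 2.3e-05). For Vegfa this held on the representative probe set, while 1451959_a_at read 6.745 and 6.80 and was not called (adjusted p = 0.51). Pgf rose by 0.55 (adjusted p = 0.036), with overlapping groups. Vegfb and Vegfd had differences of 0.62 and 0.14 and were not called (adjusted p = 0.095 and 0.45). Of the semaphorins, Sema3a, a ligand of Nrp1, rose by 1.42, and Sema3e, a repulsive ligand of Plxnd1, fell by 1.64.

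In the angiopoietin system, 1 of 9 genes measured was called higher and 2 lower, beside 15.7% and 14.7% of all genes. The median difference was -0.04, as over all genes. Angpt1, the activating ligand of Tek, rose from 2.94 ± 0.36 (SD, n = 4) to 5.54 ± 0.17 (SD, n = 5), by 2.61 ± 0.16 (SE, adjusted p = 4.5e-06). Angpt2, the ligand that can oppose it, read 4.02 in ESCs and 4.08 in EBs (adjusted p = 0.39). Ptprb, the endothelial phosphatase that acts on Tek and Cdh5, read 5.36 in both groups, with an SD of 0.01 in each. Its other probe sets, 1427486_at and 1453908_at, lay under log2 4 in both groups. Whether the first probe set detects the Ptprb transcript was not tested. Dok2, an adaptor downstream of Tek that is also expressed in blood cells, fell by 1.78, and Angptl4, a lipase inhibitor, fell by 1.17.

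Around endoglin, the type I receptor Acvrl1 lay under log2 4 in both groups (2.91 and 2.88, adjusted p = 0.73). Of the 17 genes measured in this pathway, 9 were called higher and 1 lower, beside 15.7% and 14.7% of all genes. The median difference was 0.57. Tgfbr3 (betaglycan), the other TGF-beta coreceptor, rose by 3.97 and the inhibitory Smad6 by 3.70. Another Tgfbr3 probe set, 1425620_at, read 5.83 and 5.82 and was not called (adjusted p = 0.71). Id3, a target of BMP signalling, rose by 2.02 and the type II receptor Bmpr2 by 1.40. The receptor Tgfbr1 rose from 8.64 to 10.65. Smad7 fell by 0.44. Gdf2 (BMP9) and Bmp10, the ligands known to bind endoglin, had differences of -0.05 and -0.03 (adjusted p = 0.30 and 0.081). Bmp10 lay under log2 4 in both groups (2.28 and 2.25), and Gdf2 read 5.47 and 5.42. Whether these probe sets detect their transcripts was not tested.

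Among 17 partners of endothelial junctions, 5 were called higher and 2 lower, beside 15.7% and 14.7% of all genes. The median difference was 0.06. Cdh2 (N-cadherin), which endothelial cells share with mesenchyme and neurons, rose by 4.14, the junctional adhesion molecule Jam3 by 2.61 and the cingulin relative Cgnl1 by 1.61. The rise of Cgnl1 was not seen on its other probe sets. Probe set 1448052_at read 7.32 in both groups, and 1421158_at was not called (0.31, adjusted p = 0.088). Probe set 1443861_at, under log2 4, was called lower (-0.07, adjusted p = 0.040). Cldn5, the claudin of endothelial tight junctions, rose from 5.81 ± 0.10 (SD, n = 4) to 6.73 ± 0.14 (SD, n = 5), by 0.93 (adjusted p = 3.2e-05). Among the catenins that bind Cdh5, Ctnnb1 rose by 0.35, Jup fell by 0.73, Ctnna1 fell by 0.45 and Ctnnd1 was not called (0.08, adjusted p = 0.33). These catenins also serve other cadherins.

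Of 24 transcription factors listed for endothelial development, 12 were called higher and 1 lower, beside 15.7% and 14.7% of all genes. The median difference of the 24 was 0.81. The 12 include Tcf21 (3.01), which is not particular to endothelium. The forkhead genes Foxc2 and Foxc1, which also mark other mesoderm, rose by 4.21 and 3.71, and Lmo2, a cofactor shared with blood, by 3.27. Klf2, which is also high in ESCs, fell by 3.54. Fli1, an ETS factor named after its values were seen, rose from 3.33 ± 0.02 (SD, n = 4) to 6.49 ± 0.50 (SD, n = 5). Erg, another ETS factor of endothelium, stayed under log2 4 (2.84 and 2.75, adjusted p = 0.13). Etv2, which acts early and briefly at the start of the lineage, read 2.54 to 2.55 in ESCs. It read 3.15, 3.54 and 2.82 on EB arrays 1, 3 and 5 and 2.53 and 2.54 on EB arrays 7 and 9 (difference 0.37, adjusted p = 0.14).

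Of 42 other endothelial genes measured, 11 were called higher and 2 lower, beside 15.7% and 14.7% of all genes. The median difference was 0.01. Ramp2 and Calcrl, the subunits of the adrenomedullin receptor, rose by 4.13 and 2.82, and Cd93, a surface lectin of endothelium, by 2.83. Icam1, a leukocyte adhesion molecule, fell by 2.86. In 17 of the 42 genes both groups lay under log2 4, among them the defining genes Vwf (2.87 and 3.48, called higher by 0.61), Robo4, S1pr1, Clec14a and Lyve1, the latter 4 not called. The list's summed linear values ran from 3916 to 4734 in ESCs and from 4865 to 6177 in EBs.

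**Figure D3:**
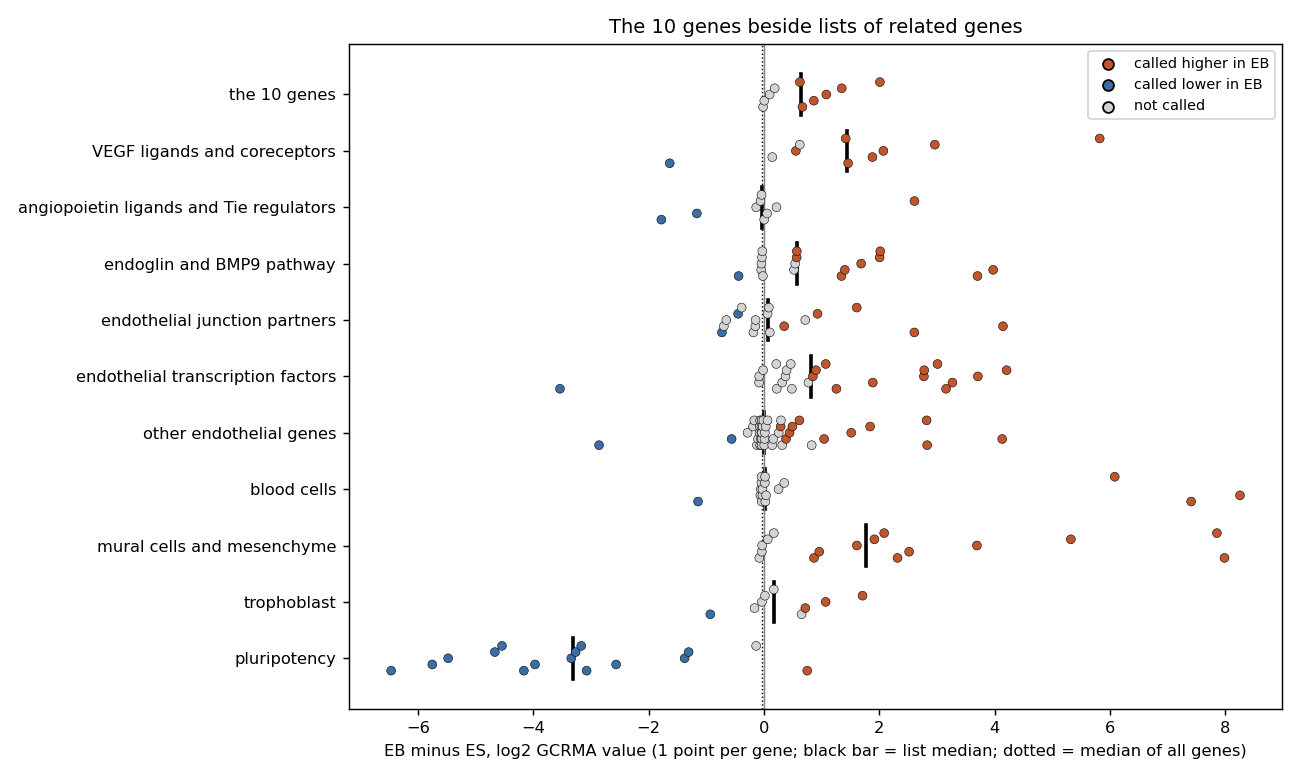
Difference between EBs and ESCs in log2 GCRMA value (horizontal axis) for the 10 genes and for 10 lists of related genes, 1 point per gene at its representative probe set, coloured by the limma call, with black bars at list medians and a dotted line at the median of all genes (-0.04). The 10 genes span -0.02 to 2.01, while the pluripotency genes lie mostly below 0.

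Taking the probe set with the highest mean left 10 of the 177 list genes without a call though another probe set was called, 8 of them higher and 2 lower in EBs. Aplnr, the apelin receptor of early mesoderm and vessels, read 6.79 and 7.10 on its representative probe set (adjusted p = 0.095) but rose by 6.84 on 1438651_a_at. Sox17, a factor of arterial endothelium and of endoderm, rose by 2.57 on 1429177_x_at, and Tgfbr2 rose by 1.99 on 1426397_at. Pdgfra, a mesenchyme marker, rose by 5.84 on 1421917_at. The 2 lower ones were Jam2, a junctional adhesion molecule, which fell by 2.23 on 1449408_at, and Esrrb, a pluripotency factor, which fell by 3.86 on 1436926_at. For the 10 genes described here, calling any probe set also gave 6 genes called higher and 0 lower, against 17.5% and 16.7% of all genes.

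Several members are not particular to endothelium, so markers of other cells were read beside them. Of 17 genes of blood cells 3 were called higher and 1 lower, beside 15.7% and 14.7% of all genes, with a median of 0.01. The same shares of all genes stand beside the mesenchyme and trophoblast counts below. The embryonic globins Hbb-y, Hba-x and Hbb-bh1 rose by 8.26, 7.41 and 6.08, while Ptprc (CD45) and the myeloid factor Spi1 stayed under log2 4 in both groups. Summed linear values of this list ran from 731 to 804 in ESCs and from 3656 to 12566 in EBs. Most of the EB sums came from the 3 globins, with mean linear values in EBs of 3019.5 (Hbb-y), 1361 (Hba-x) and 3855 (Hbb-bh1). Of 16 genes of mural cells and mesenchyme 11 were called higher and 0 lower, at a median of 1.76, with Postn up by 7.99, Col3a1 by 7.85, Pdgfrb by 5.32 and Lum by 3.69. Their sums ran from 9675 to 22649 in ESCs and from 48132 to 56697 in EBs. Of 13 genes of trophoblast, a lineage known to express Flt1, 9 were measured. Of these, 3 were higher (Eomes by 1.71, Krt7 by 1.07 and Plac1 by 0.72) and 1 lower (Tfap2c, from 9.83 to 8.90). The defining gene Tpbpa read 3.86 and 3.87. Summed values of this list, 1311 to 1441 in ESCs and 1270 to 1631 in EBs, overlapped. Tfap2c was the highest of the list in ESCs, so its fall offsets the rises in this sum. GCRMA lists no value at 0, and the part of these cells in the levels of the 10 genes was not tested.

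Genes of pluripotency followed the labels, with 14 of 16 called lower in EBs and 1, Tbx3, called higher, beside 14.7% and 15.7% of all genes. Zfp42, Fgf4, Nr0b1 and Utf1 fell by 6.47, 5.75, 5.48 and 4.67. Pou5f1 read 12.12 to 12.35 in ESCs and 8.17 to 9.71 in EBs. Summed linear values of the list were 43199 to 46814 in ESCs and 4134 to 7975 in EBs. Pairs of arrays correlated across probe sets at Pearson r = 0.995 to 0.998 within ESCs, 0.997 to 0.999 within EBs and 0.968 to 0.977 between them.

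Within each group the arrays numbered 1 to 6 and those numbered 7 to 10 stood apart in some of these genes. ESC arrays 8 and 10 were above arrays 2 and 6 in Kdr and Nrp1, as they were in Pdgfrb (5.26 and 5.41 against 2.86 and 3.62) and Col3a1 (6.28 and 5.51 against 3.12 and 3.65). EB arrays 7 and 9 were below arrays 1, 3 and 5 in Cdh5 and Cd34, as they were in Plvap, a diaphragm protein of capillaries (both 6.22, against 7.20 to 7.36), in Hbb-y (10.35 and 10.79 against 11.85 to 12.05) and in Pou5f1 (8.53 and 8.17 against 9.36 to 9.71). Emcn and Tie1 did not follow this division of the EB arrays. The labels do not say what the numbers stand for, and the difference between the number ranges was not tested. With the number range as a term in the fit, 6 of the 10 genes were again called higher, beside 16.4% of all genes. In either range alone, 4 were called higher, beside 12.6% of all genes in arrays 1 to 6 and 13.1% in arrays 7 to 10.

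The genes with the pattern most like that of Kdr over the 9 arrays were Col5a2, St3gal2, Ier5, Wls and Frmd6. Likeness was the root mean square difference in log2 values after each gene was centred on its ESC mean, and these 5 had the smallest among 10717 genes with a mean of at least log2 5 in either group, from 0.24 to 0.27. The choice used all 9 arrays, so that these genes share the split of the ESC arrays with Kdr follows from it. Col5a2, a fibrillar collagen, rose from 6.31 to 8.41, and Wls, which carries Wnt proteins to the cell surface, from 8.89 to 10.91. For Cdh5 the 5 nearest of 10718 genes were Gm9222, Prxl2a, L3mbtl3, Ints6l and Ptch1, at 0.12 to 0.14. Ptch1, the hedgehog receptor, rose from 10.12 to 11.48. None of these 10 genes is among the endothelial genes listed here. The minimum of log2 5 kept out Tie1, Cd34, Pecam1 and other endothelial genes of low level. Cdh5 itself lay under it (2.59 and 3.93), so this absence follows in part from the choice of candidates.

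**Figure D4:**
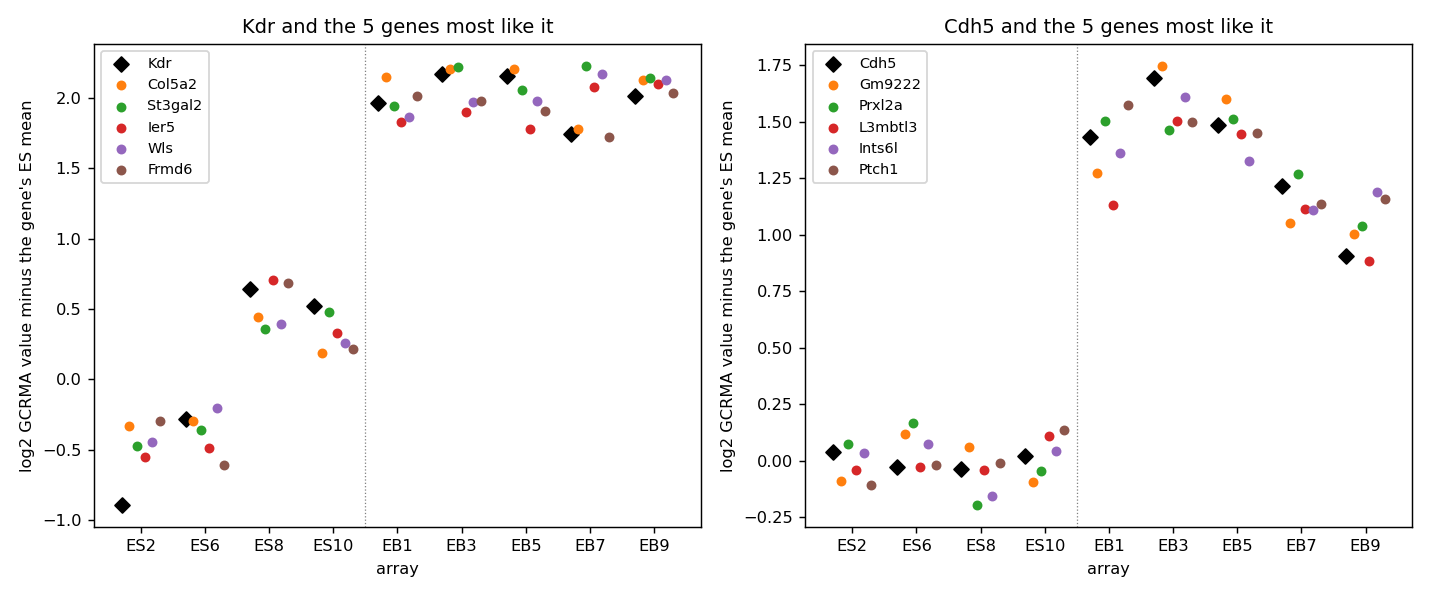
Log2 GCRMA value minus each gene's ESC mean (vertical axis) on each of the 9 arrays (horizontal axis) for Kdr and Cdh5 (black diamonds) and the 5 genes most like each (coloured circles, spread sideways for legibility). The genes were chosen for small distances over these arrays, so the circles lie near the diamonds by choice.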

How the data were processed

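Expression was measured with 9 Affymetrix mouse arrays. The deposited values are GCRMA intensities, on a linear scale, made by the authors, and the submitters' processing notes name the same method. Whether all 9 arrays were normalized together is not given in the sources used here. Precision is limited by the number of arrays. Of 45101 probe sets, 64 controls were left out. The annotation of the array paired 34945 of the other 45037 with 1 symbol, 932 with several and 9160 with none. The log2 was taken without further normalization.

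EBs and ESCs, grouped by sample titles, were compared with limma 3.58.1 in R 4.3.3 (eBayes with trend and robust, two-sided, Benjamini-Hochberg over all 45037 probe sets), which was also tested on simulated data. Each gene was read from its probe set of highest mean. The 10 genes, the 10 other lists, of which 177 genes were measured, and the alternatives were chosen with earlier results of these data known, and all list levels are descriptions. Of each list up to 4 called genes with the largest change were named, with ligands and partners of the 10 genes. Other named genes were chosen after their values were seen. Promoter windows came from RefSeq (GRCm38.p6). The alternatives were other normalizations, variance models, weights, filters, probe set choices and subsets of arrays.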

Additional observations from a re-analysis of the deposited data

Results flagged for a closer look

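A single array stood apart from its group in 2 of 32 sets of values (16 probe sets in 2 groups), tested by the gap to the nearest array over the range of the group. Chance gives such a flag in about 5% of groups. Both concerned ESC array 10 and second probe sets at low level, 1422047_at of Cdh5, with 2.36 on that array against 2.30 to 2.31 on the other ESC arrays, and 1432176_a_at of Eng, with 3.08 against 3.05. Neither probe set was called between ESCs and EBs. Array 10 was also the highest ESC array for Tie1 (2.28) and Pecam1 (2.59), though not for Cd34 (2.23), so the 2 flags may not be independent.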

How the results depend on the processing

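The main count of 6 genes called higher in EBs stood beside 15.7% of all genes. When only probe sets with a mean of log2 4 or more were tested, it was 3 of 6, beside 25.7%. That filter leaves out Tie1, Cdh5, Cd34 and Pecam1. With a fold of at least 2, which Flt1, Tie1 and Emcn did not reach, it was 3 of 10, beside 5.88%. The count was 4 to 6 under the other alternatives, beside 12.6% to 17.5% of all genes, and 5 to 6 with each array left out in turn. No gene was called lower under any, beside 3.63% to 28.1% of all genes. Plain _at probe sets leave out Emcn, Eng and Pecam1. Kdr and Cdh5 kept their call under every alternative in which they were tested. Directions turned only for 3 genes that were not called. Flt4 was at -0.02945 with quantile normalization and at -0.03134 when probe sets were averaged. Eng was at 0.000181 with centring on the median, 0.03279 with array weights, 0.05089 with arrays 1 to 6 and -0.1132 to 0.02512 with single arrays left out. Pecam1 was at -0.002139 with array weights, -0.01698 with arrays 7 to 10 and -0.007654 to 0.01334 with single arrays left out. Of the 177 list genes measured, 63 were called higher and 25 lower, beside 15.7% and 14.7% of all genes. These counts were 47 to 74 and 20 to 35 under the alternatives and 58 to 69 and 25 to 34 with single arrays left out. The filter on the mean left 137 list genes and plain _at probe sets left 158. The alternative that calls a gene by any of its probe sets was added after seeing the data. In the smallest subset, arrays 7 to 10, each group had 2 arrays. The groups share no array numbers and the labels name no pairs, so the fits used no pairing.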
